A study of Mus musculus with 2 samples.

Results

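The genes described here are the orphan and adhesion G protein-coupled receptors of mouse basolateral amygdala cells. They were taken by name, as genes called Gpr plus a number or Adgr, and by depth, as genes with at least 20 unique molecular identifiers (UMIs, tags that count RNA molecules) over both libraries. Of 98 genes with such a name, 62 reached that depth, out of 25120 genes in the tables; 17 were adhesion receptors and 45 carried a GPR number. Since the total UMI count chose them, it is a description and not a result. Just inside the limit were Gpr22 with 24 UMIs and Gpr139 and Gpr141 with 20 each, and just outside were Adgrg3 with 18 and Gpr20 and Adgrd1 with 17 each. The other 36 named genes under the limit were not described further.

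G protein-coupled receptors cross the membrane 7 times and pass an outside signal to G proteins inside the cell. A GPR number marks a receptor that had no known ligand when it was named, and for several of them (Gpr34, Gpr84, Gpr183) ligands have since been reported. Adhesion receptors carry a long extracellular part that binds matrix or proteins on neighbouring cells, and most cut themselves at a site close to the membrane. In the brain, members of both groups are known from microglia, from astrocytes and from the step at which oligodendrocyte precursors turn into myelinating cells.

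Adult C57BL/6 mice had received vehicle, or FGF21 at 1 mg/kg once a day for 3 days; FGF21 is an endocrine hormone that acts through FGF receptors with the co-receptor beta-klotho (KLB). Basolateral amygdala tissue of 3 mice was pooled for each treatment, dissociated with pronase in the presence of the transcription blocker actinomycin D, and sorted for tdTomato fluorescence and for viability by Hoechst. Each treatment is thus 1 library of polyadenylated RNA from 1 pool, made on the BD Rhapsody platform, so animals cannot be told apart and no difference between treatments has a replicate check. Intervals given below are exact 95% Poisson intervals of a level or exact binomial intervals of a ratio of levels, and cover counting error only.

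After filtering, 2337 vehicle and 1935 FGF21 cells were used, with a median of 4232 and 6838 UMIs per cell. Although the title of the series speaks of KLB-expressing cells, the sorted cells were mostly glia: neuron-like cells numbered 9 and 21, while microglia-like cells numbered 1414 and 886, oligodendrocyte precursor-like cells 376 and 576 and astrocyte-like cells 99 and 192 (vehicle and FGF21, as in every pair of values below). Smaller classes were mural-like cells of vessel walls (181 and 40), oligodendrocyte-like (41 and 82), committed precursor-like (32 and 38), border macrophage-like (53 and 23), endothelial-like (32 and 16), choroid plexus-like (28 and 16) and erythroid-like cells (46 and 20). Class names, written below without "-like", rest on marker lists, and the receptor genes themselves were kept out of the clustering. Microglia and precursors split by library. Cluster 8 held 1401 vehicle and 21 FGF21 microglia, cluster 9 held 13 and 865, precursor cluster 2 held 367 and 111 and precursor cluster 6 held 9 and 465. Among the used cells, 6 cell indices occurred in both libraries.

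The 62 receptors took 39903 UMIs of the vehicle library and 53691 of the FGF21 library, which is 0.358% and 0.368% of all UMIs. Levels are given as CPM, the UMIs of a gene per 1000000 UMIs of its class. Markers of other classes were also counted in classes that should lack them, as RNA free in the suspension would be, though the source was not tested. Lists of such markers stood at 29.4% and 35.0% of their library-wide level there (median of 13 pairs of a list and a class). The pairs ranged from 21.0% to 39.8% in vehicle and from 25.7% to 55.3% in FGF21. A receptor's level in a class is therefore set, where it matters, beside the level that the median share of the library average gives, called the background here. As the same median serves all classes, this background is approximate and can exceed the level itself.

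A receptor was said to mark a class when its level there was at least 2 times that in each of the other 9 classes, in both libraries, with at least 10 UMIs. Of the 61 receptors judged, 13 marked a class, beside 13.0% of all genes judged in that way. The classes marked were oligodendrocytes (Gpr37, Gpr62, Adgrv1), endothelial cells (Adgrf5, Adgrl4, Gpr4), precursors (Gpr137c, Gpr158, Gpr26), microglia (Gpr34), border macrophages (Gpr65), committed precursors (Gpr17) and astrocytes (Gpr37l1). For single classes the shares of all genes were 2.25% in oligodendrocytes, 6.50% in endothelial cells, 1.93% in precursors, 0.787% in microglia, 2.58% in border macrophages, 1.11% in committed precursors and 1.99% in astrocytes. No receptor marked mural, choroid plexus or erythroid cells, where 3.27%, 6.64% and 3.22% of genes did. Of the 48 that were judged and marked no class, 26 were highest in the same class in both libraries, 9 of them in precursors, 6 in astrocytes and 3 each in microglia and mural cells. In 10 of the 48 the highest value of a library lay in endothelial or erythroid cells, where 1 UMI is worth 10.6 to 24.1 CPM.

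**Figure D1:**
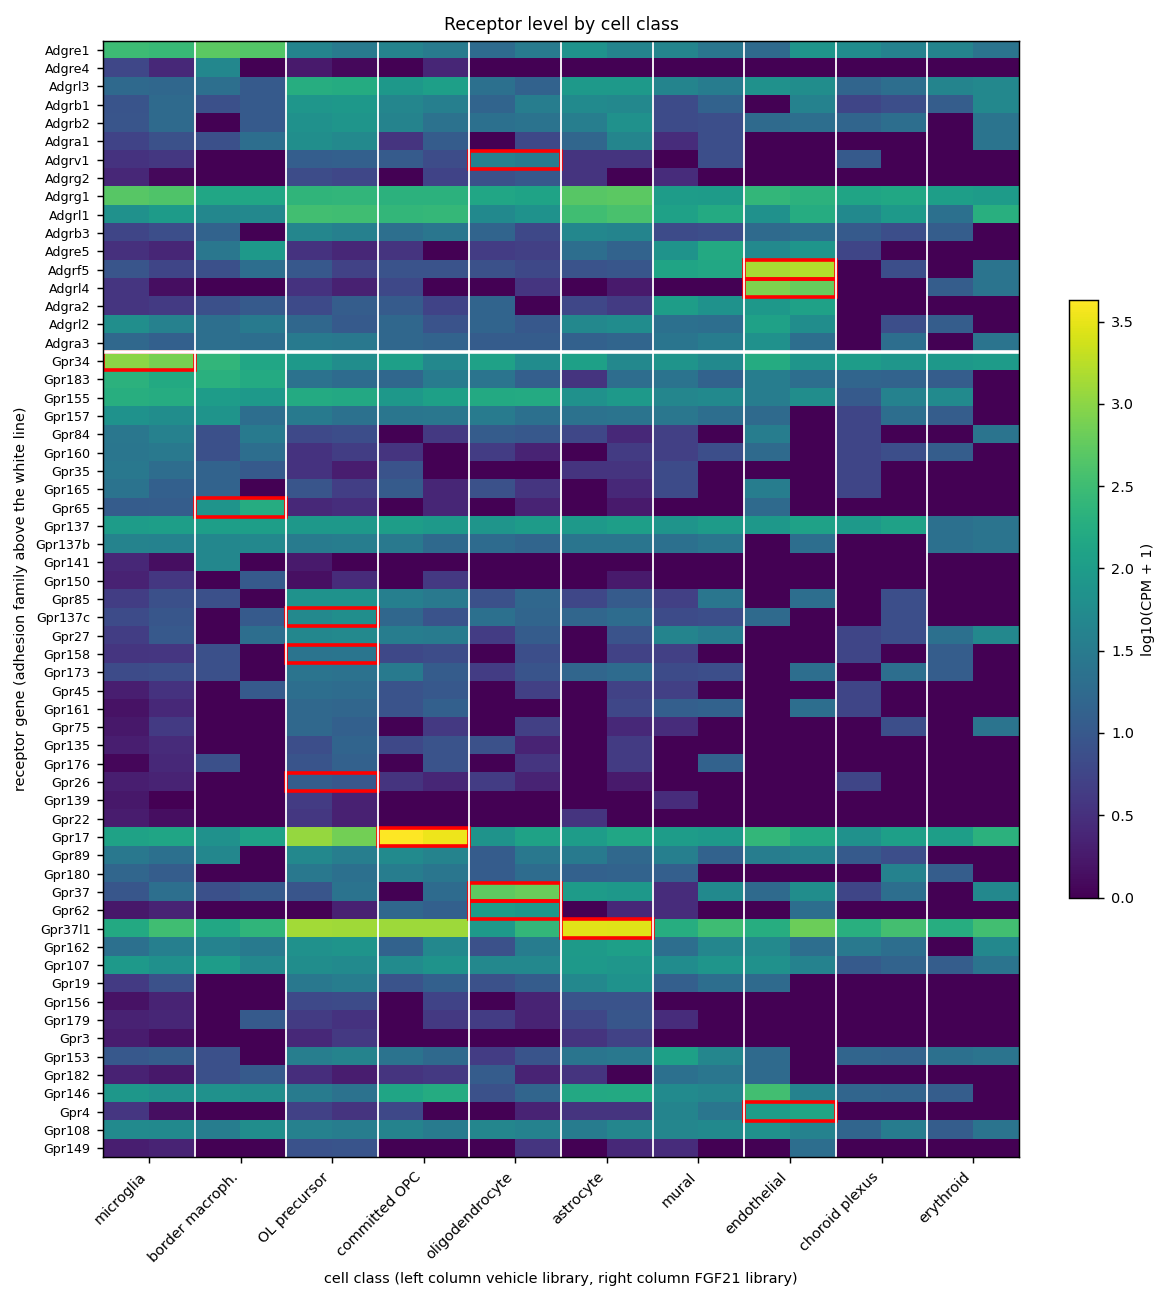
Level of each of the 61 receptors judged in 10 cell classes, as log10(CPM + 1), with the vehicle library in the left and the FGF21 library in the right column of each class; red frames mark the 13 receptors that were at least 2-fold above every other class in both libraries. Gpr34 stands out in microglia, Gpr17 in committed precursors, Gpr37l1 in astrocytes and Gpr37 in oligodendrocytes.

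Among the receptors of myeloid cells, Gpr34, reported to respond to lysophosphatidylserine, had a microglial level of 993 CPM (967 to 1019) and 770 CPM (747 to 794). Border macrophages, the macrophages of the meninges and vessel surroundings, followed with 242 CPM (169 to 334) and 137 CPM (75.1 to 230). The level in microglia was thus 4.11-fold (2.97 to 5.87) and 5.61-fold (3.34 to 10.3) that in border macrophages, where background gave 72.0% and 86.0% of the level. Gpr34 lies on chromosome X (13632089 to 13640858, plus strand, GRCm38) inside the gene Cask, which runs on the other strand and shares no exon with it.

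Gpr65, a proton-sensing receptor, was the reverse case: it stood at 73.8 CPM (36.8 to 132) and 177 CPM (105 to 279) in border macrophages and at 10.5 and 10.7 CPM in microglia. These levels rest on 11 and 18 UMIs in 9 and 8 border macrophages. The next class of the vehicle library was endothelial cells with 1 UMI, a fold of 4.41 (0.641 to 190). Gpr65 (chromosome 12, 98268635 to 98276644, plus strand) overlaps an exon of Gm47566 on the other strand, and strand use in counting is not given in the sources used here. Adgre1, which encodes the macrophage surface protein F4/80, was also higher in border macrophages, at 517 CPM (408 to 646) and 451 CPM (330 to 602) against 308 CPM (294 to 322) and 273 CPM (260 to 288) in microglia. That is 1.68-fold and 1.65-fold and did not reach the 2-fold limit.

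Not all myeloid receptors separated the 2 macrophage classes. Gpr183, a receptor for oxysterols, stood at 213 and 159 CPM in microglia and at 201 and 167 CPM in border macrophages, against 22.1 and 17.3 CPM in precursors. Gpr84, which is reported to sense medium-chain fatty acids, was at 26.7 and 37.9 CPM in microglia and at 6.71 and 29.4 CPM in border macrophages. The border macrophage levels are no higher than 3 counts would be (20.1 and 29.4 CPM), too few to compare the 2 classes. Gpr160 was higher in microglia than in any other class, with 25.6 and 28.1 CPM, and so was Gpr35, with 27.0 and 19.0 CPM. In the comparison of the 2 classes, limited to the 37 receptors that had 50 UMIs or more in both together, 4 stood 2-fold or more above border macrophages in each library (Gpr34, Adgrg1, Gpr19, Gpr180), where 9.21% of all genes were. Only Gpr65 was 2-fold higher in border macrophages, where 3.70% of genes were. Gpr19 and Gpr180 had no UMI in border macrophages, where 3 counts would be 20.1 and 29.4 CPM, so that their levels of at most 15.0 CPM in microglia lie under what that depth could show.

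Adgre4, a relative of F4/80, and Gpr141 were found almost only in myeloid cells and at low depth. Each had 7 UMIs, or 47.0 CPM (18.9 to 96.8), in the vehicle border macrophages and none in the FGF21 ones, where a count of 0 allows up to 29.4 CPM, a level inside the vehicle interval. The 7 UMIs of Adgre4 came from 3 cells and those of Gpr141 from 2 cells.

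**Figure D2:**
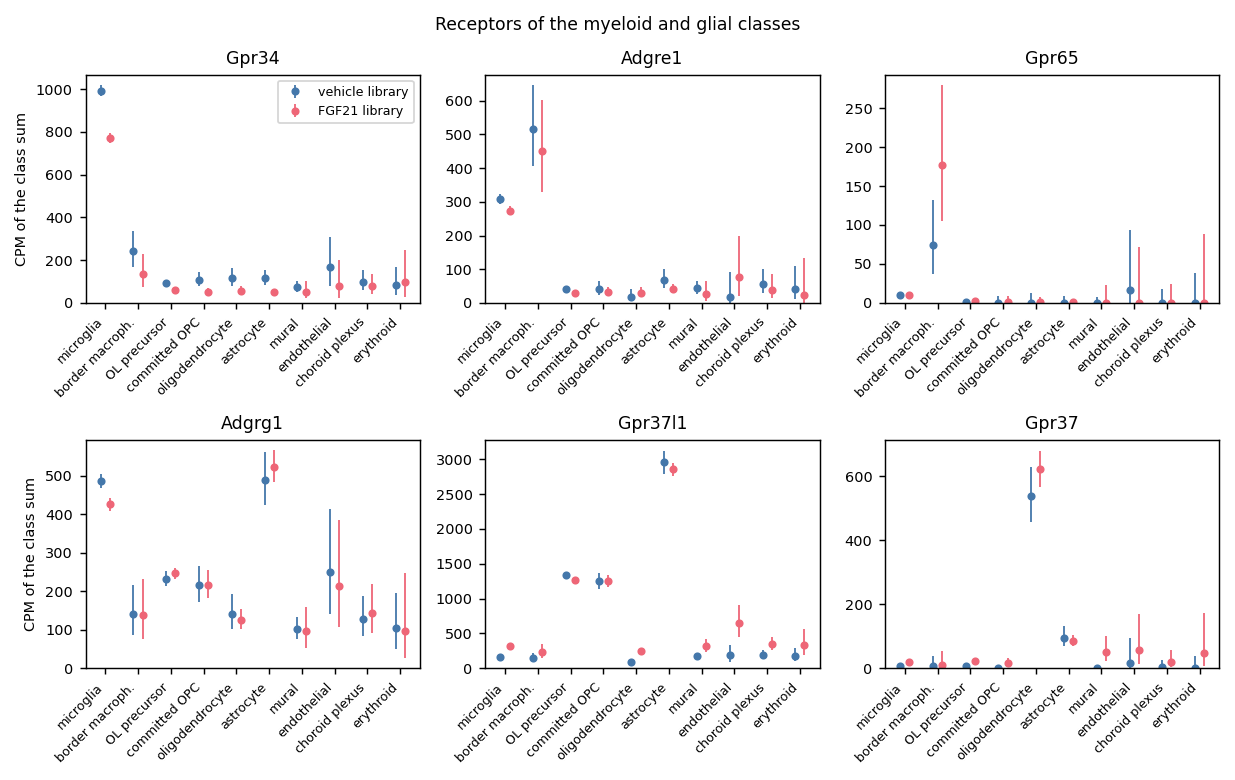
Levels of 6 receptors in 10 cell classes (CPM of the class sum on a linear axis from 0; points are the vehicle library in blue and the FGF21 library in red; bars are exact 95% Poisson intervals). Gpr34 is highest in microglia, Adgre1 and Gpr65 in border macrophages, Gpr37l1 in astrocytes and Gpr37 in oligodendrocytes, while Adgrg1 is about equally high in microglia and astrocytes.

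Gpr37l1 and Gpr37 are paralogs that resemble endothelin receptors and have been reported to respond to prosaposin. They marked different glia, Gpr37l1 astrocytes and Gpr37 oligodendrocytes, though both were at least 2-fold higher in astrocytes than in precursors in both libraries. Their promoters are therefore shown, each with 250 bases before and 50 after the annotated start, from RefSeq (GRCm38.p6). Entries were found for 46 of the 62 receptors and for 10 of the 13 that marked a class. Capitals mark GGGCGG on either strand (CCGCCC as printed), the letters of a GC box, which 35.7% of 32851 mouse promoters of this length hold. The Gpr37l1 window is chr1:135167632-135167931 and the Gpr37 window chr6:25689931-25690230, both read on the minus strand. The start in RefSeq is that of the gene as given below for Gpr37l1, but lies 749 bases inside the gene for Gpr37, so the windows are not at like places.
Gpr37l1: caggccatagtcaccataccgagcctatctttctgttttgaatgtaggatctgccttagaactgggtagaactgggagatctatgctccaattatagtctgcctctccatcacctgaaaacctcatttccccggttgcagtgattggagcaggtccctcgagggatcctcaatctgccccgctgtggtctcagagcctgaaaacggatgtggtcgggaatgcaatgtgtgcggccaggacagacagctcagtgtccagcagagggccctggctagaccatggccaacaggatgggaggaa
Gpr37: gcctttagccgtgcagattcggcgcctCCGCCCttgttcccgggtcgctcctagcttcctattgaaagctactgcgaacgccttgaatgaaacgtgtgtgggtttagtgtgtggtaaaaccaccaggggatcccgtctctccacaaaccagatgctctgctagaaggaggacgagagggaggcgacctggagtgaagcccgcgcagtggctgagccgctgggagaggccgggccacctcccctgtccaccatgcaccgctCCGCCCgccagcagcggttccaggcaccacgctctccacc
The Gpr37 window held the letters at 2 places and the Gpr37l1 window at none, and GC content was 62.7% and 53.7%, with a median of 52.7% over all promoters. These matches describe letters in a window and are not measured binding.

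Gpr37l1 (chromosome 1, 135160234 to 135167681, minus strand) reached 2954 CPM (2789 to 3126) and 2857 CPM (2762 to 2954) in astrocytes. Precursors followed with 1336 CPM (1291 to 1382) and 1271 CPM (1241 to 1303), and committed precursors with 1251 and 1247 CPM. Astrocytes were thus 2.21-fold (2.07 to 2.36) and 2.25-fold (2.16 to 2.34) above precursors. In oligodendrocytes the level was 89.8 and 253 CPM, under the background in both libraries, and in microglia 161 and 325 CPM. After each cell was thinned to 2000 UMIs, 96.1% and 99.4% of astrocytes and 90.1% and 90.7% of precursors held a Gpr37l1 UMI; 26.1% and 49.7% of microglia did, where background gave 103% of the level. Before thinning the shares were 94.9% and 97.9% of astrocytes, 99.5% and 99.0% of precursors and 47.3% and 81.6% of microglia.

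Gpr37 (chromosome 6, 25665878 to 25690729, minus strand) was the receptor of the oligodendrocytes, at 539 CPM (457 to 630) and 622 CPM (568 to 680), found in 34 of 41 and 80 of 82 cells. Astrocytes held 95.8 CPM (68.2 to 131) and 84.6 CPM (69.0 to 103), of which background gave 7.80% and 24.9%. Oligodendrocytes were 5.62-fold (3.93 to 8.20) and 7.35-fold (5.93 to 9.20) above astrocytes. From committed precursors to oligodendrocytes the 2 paralogs went opposite ways: Gpr37l1 was lower and Gpr37 higher in the later cells, in both libraries.

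Among the stages of the oligodendrocyte lineage, clustered again by themselves, were precursors (357 and 487 cells), a cluster led by Mcm replication genes (15 and 87 cells, left without a type name), committed precursors (36 and 40) and oligodendrocytes (41 and 82). By the same 2-fold rule, 5 of 55 receptors were highest in 1 stage, beside 5.51% of all genes. These were Gpr17 and Gpr146 in committed precursors (1.76% of genes judged there), Gpr37 and Gpr62 in oligodendrocytes (4.50%), and Gpr22 in precursors (0.496%). None was highest in the Mcm-led cluster, where 0.772% of genes were. Gpr22 rests on 13 UMIs and on counts of 0 in the other stages, which the depth of those stages cannot tell from its 3.01 and 1.47 CPM. Between the small Mcm-led cluster and the precursors none of 41 receptors was 2-fold apart in either direction in both libraries (0.641% and 0.606% of all genes were higher and lower). The count differed between groupings: with a stricter mitochondrial filter, with the receptors kept in the clustering or with another clustering resolution, 12, 13 and 14 receptors were highest in 1 stage, and the added ones were mostly precursor receptors, among them Adgra1, Gpr149, Gpr158, Gpr26 and Gpr75. In those groupings no Mcm-led stage was kept apart, so precursor levels were not compared with that cluster. What part this had in the counts was not tested.

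Gpr17, a receptor known to hold back the maturation of precursors until it is lost, was at 1129 and 754 CPM in precursors, at 840 and 493 CPM in the Mcm-led cluster, at 4084 and 3376 CPM in committed precursors and at 72.5 and 123 CPM in oligodendrocytes. Committed precursors stood 3.62-fold (3.41 to 3.84) and 4.48-fold (4.24 to 4.73) above precursors. All 32 and 38 committed precursors of the class held a Gpr17 UMI. An exon of Gpr17 overlaps Lims2 on the other strand. Lims2 was also highest in committed precursors, at 544 and 605 CPM against 92.4 and 86.8 CPM in precursors, and whether reads of 1 gene were counted for the other was not tested.

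Gpr146 (chromosome 5, 139377697 to 139396415, plus strand) shared the peak of Gpr17, at 135 and 166 CPM in committed precursors against 29.2 and 21.7 CPM in precursors and 6.90 and 14.1 CPM in oligodendrocytes. Unlike Gpr17 it was as high in astrocytes, at 152 and 159 CPM, and did not mark a class. Gpr62 (chromosome 9, 106463962 to 106465938, minus strand) appeared one stage later, at 13.7 and 11.5 CPM in committed precursors and 100 CPM (67.1 to 144) and 82.3 CPM (63.4 to 105) in oligodendrocytes. The oligodendrocyte level was 7.30-fold (2.98 to 21.5) and 7.18-fold (3.43 to 17.3) that of committed precursors. In FGF21 the next class was endothelial cells with 1 UMI, a fold of 4.22 (0.731 to 169). Its exons overlap Pcbp4 on the other strand. Adgrv1, the large adhesion receptor of the Usher syndrome complex, was at 38.0 CPM (19.0 to 68.0) and 30.9 CPM (19.8 to 45.9) in oligodendrocytes and at 11.3 and 11.8 CPM in precursors of the class comparison. It lies on chromosome 13 (81095068 to 81633154, minus strand).

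The receptors that marked precursors had low levels. Gpr137c, a relative of the lysosomal protein Gpr137, was at 49.5 CPM (41.1 to 59.0) and 60.1 CPM (53.6 to 67.3) in precursors and at 20.7 and 14.1 CPM in oligodendrocytes. Gpr158, which binds the RGS7 complex at neuronal membranes, was at 24.1 CPM (18.4 to 31.1) and 24.6 CPM (20.4 to 29.3), against 5.07 and 5.93 CPM in committed precursors. Gpr26 stood at 10.9 CPM (7.16 to 15.8) and 8.65 CPM (6.28 to 11.6), against 2.54 and 1.48 CPM. For Gpr158 and Gpr26 the next class in the vehicle library held 1 UMI, in erythroid and in choroid plexus cells, so the intervals of these folds reached from 0.394 to 91.7 and from 0.375 to 93.3. The FGF21 fold of Gpr26 was 5.84 (0.994 to 236). Between the libraries, the precursor ratios of FGF21 to vehicle were 1.02 (0.74 to 1.41) for Gpr158, 0.80 (0.48 to 1.34) for Gpr26 and 1.22 (0.98 to 1.51) for Gpr137c.

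The letters CAGCTG, an E-box that reads the same on both strands, stood in the promoter windows of both Gpr137c and Gpr158, and of the later lineage receptor Gpr62. They are printed below in capitals, since Gpr137c and Gpr158 mark the precursor class and Gpr62 the oligodendrocyte class of 1 lineage. The windows are chr14:45219467-45219766 and chr2:21367317-21367616 on the plus strand and chr9:106465936-106466235 on the minus strand.
Gpr137c: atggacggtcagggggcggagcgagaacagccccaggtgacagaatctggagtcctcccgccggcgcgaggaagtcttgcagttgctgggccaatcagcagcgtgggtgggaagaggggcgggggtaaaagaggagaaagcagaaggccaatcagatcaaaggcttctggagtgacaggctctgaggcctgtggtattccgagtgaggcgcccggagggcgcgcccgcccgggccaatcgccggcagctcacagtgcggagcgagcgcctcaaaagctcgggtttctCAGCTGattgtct
Gpr158: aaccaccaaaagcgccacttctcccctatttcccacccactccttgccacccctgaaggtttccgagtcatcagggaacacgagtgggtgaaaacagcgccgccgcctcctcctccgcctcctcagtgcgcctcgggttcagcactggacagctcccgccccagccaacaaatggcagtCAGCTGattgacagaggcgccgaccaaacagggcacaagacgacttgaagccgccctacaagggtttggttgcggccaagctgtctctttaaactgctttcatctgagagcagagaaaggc
Gpr62: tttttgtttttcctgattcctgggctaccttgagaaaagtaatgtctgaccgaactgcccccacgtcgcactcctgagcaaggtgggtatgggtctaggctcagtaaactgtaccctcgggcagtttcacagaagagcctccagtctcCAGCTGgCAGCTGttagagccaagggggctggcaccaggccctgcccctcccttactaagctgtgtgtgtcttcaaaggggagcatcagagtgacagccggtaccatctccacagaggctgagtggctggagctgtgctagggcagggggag
Of all promoters, 16.3% held the letters. Among the marking receptors with an entry, Gpr65 of border macrophages held them too. The window of Gpr37 printed above, also a receptor of oligodendrocytes, did not hold them. The letters were thus neither in every window of the lineage nor in that lineage alone. Gpr17 and Gpr26, which also mark classes of the lineage, had no entry. A total of 8 motifs were searched, and the others were left out of the text apart from the GC box.

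**Figure D3:**
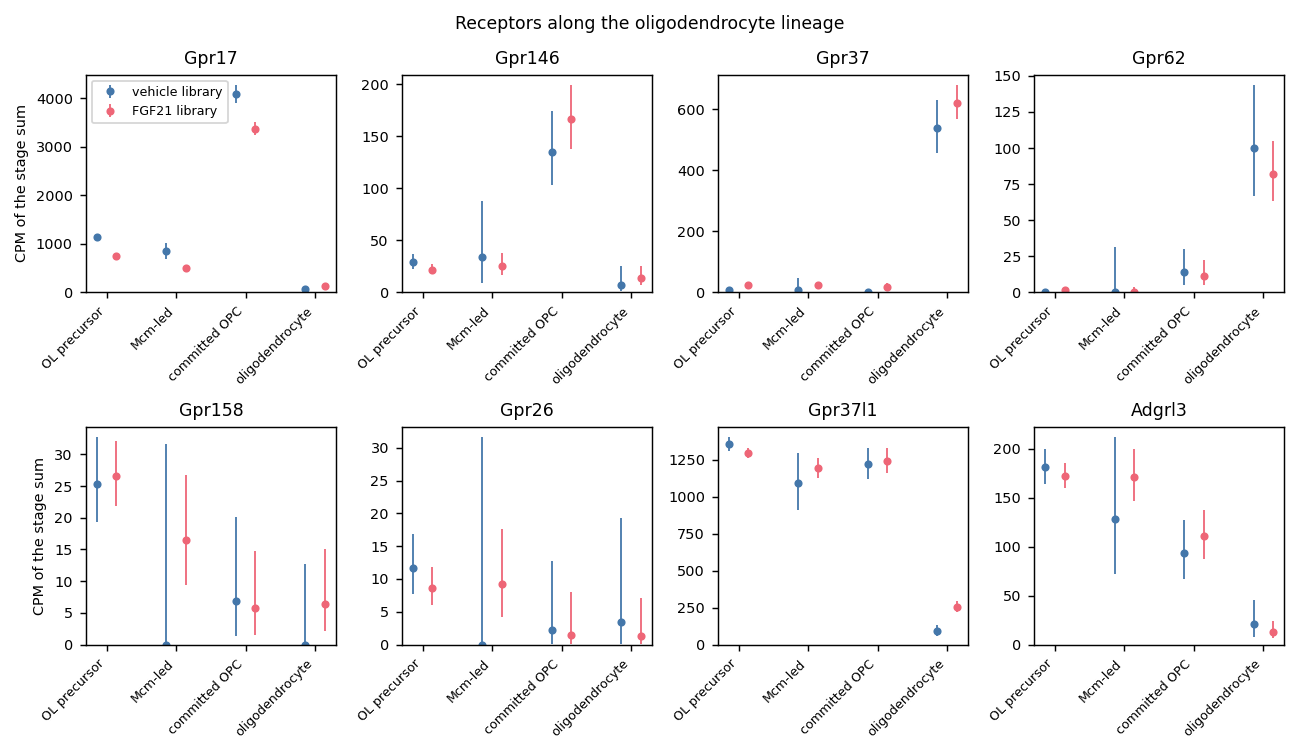
Levels of 8 receptors at 4 stages of the oligodendrocyte lineage (CPM of the stage sum on linear axes from 0, each panel with its own range; vehicle library in blue, FGF21 library in red; bars are exact 95% Poisson intervals). Gpr17 and Gpr146 peak in committed precursors, Gpr37 and Gpr62 in oligodendrocytes, and Gpr158, Gpr26, Gpr37l1 and Adgrl3 are lower in oligodendrocytes than in precursors.

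Many receptors of the lineage were lower in oligodendrocytes than in precursors. The comparison held 42 receptors; 23 of them had 2 or more times the oligodendrocyte level in precursors of each library, where 23.1% of all genes were, and 3 (Gpr37, Gpr62, Adgrv1) were lower, where 5.11% of genes were. For 6 of the 23 (Gpr149, Gpr161, Gpr176, Gpr26, Gpr45, Gpr75) 50% of the precursor level lay, in at least 1 library, under the 3 counts that oligodendrocytes could show (10.4 and 3.86 CPM). Among the 30 receptors above that depth 17 were called, beside 22.3% of all genes above it. Part of that step already lay between precursors and committed precursors: 8 of 41 receptors (Adgra1, Gpr137c, Gpr149, Gpr158, Gpr19, Gpr26, Gpr75, Gpr85) were at least 2-fold lower in committed precursors and 2 higher, beside 9.75% and 3.08% of all genes. Gpr149 and Gpr26 were too low in precursors for the depth of the committed ones (3 counts are 6.86 and 4.30 CPM), which leaves 6 of 34 receptors beside 9.35% of genes. Adgra1, for instance, went from 63.2 and 48.6 CPM to 2.29 and 15.8 CPM. The latrophilin Adgrl1 had its largest step later and was at 334 and 323 CPM in precursors, 263 and 257 CPM in committed precursors and 51.8 and 70.7 CPM in oligodendrocytes. Gpr155, a lysosomal cholesterol-sensing protein, was among those without such a step, at 164 and 152 CPM in precursors and 159 and 162 CPM in oligodendrocytes.

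The adhesion receptors of the latrophilin family (Adgrl1, Adgrl2 and Adgrl3, which bind teneurins and FLRT proteins) summed to 527 CPM (499 to 557) and 505 CPM (486 to 525) in precursors and to 469 CPM (405 to 541) and 535 CPM (495 to 578) in astrocytes. Oligodendrocytes held 86.3 CPM (55.9 to 127) and 92.6 CPM (72.4 to 117). Adgrl1 and Adgrl3 carried the precursor level, whereas Adgrl2 was low there, at 15.3 and 9.63 CPM, and higher in microglia, at 61.9 and 38.6 CPM, and in astrocytes, at 49.2 and 58.1 CPM. Adgrl2 was highest in endothelial cells in both libraries. The family summed to 251 CPM (140 to 414) and 292 CPM (164 to 482) there, from 15 UMIs in each library. In mural cells the sum was 180 and 217 CPM. The brain angiogenesis inhibitor receptors (Adgrb1, Adgrb2, Adgrb3) stood higher in precursors in both libraries, with 191 and 198 CPM in precursors, 135 and 158 CPM in astrocytes and 48.3 and 61.7 CPM in oligodendrocytes. Their microglial sum, 20.3 and 40.0 CPM, lay at the background, which was 92.1% to 116% of the level of each.

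Adgrg1, also called GPR56, is known from microglia and from precursor proliferation. It stood at 485 and 425 CPM in microglia and 489 and 523 CPM in astrocytes, and at 232 and 246 CPM in precursors and 141 and 137 CPM in border macrophages. Between astrocytes and precursors, 5 of 43 receptors were at least 2-fold higher in astrocytes in both libraries (Gpr37l1, Adgrg1, Gpr146, Gpr37, Adgrl2) and 13 were lower, beside 5.88% and 14.7% of all genes. Of the 13, 5 (Adgrv1, Gpr135, Gpr149, Gpr176, Gpr26) were too low in precursors for the depth of the astrocytes, which leaves 8 of 34 beside 14.5% of genes. The others included Gpr45 (19.7 and 18.5 CPM in precursors, 0 and 4.15 CPM in astrocytes) and Gpr85 (70.0 and 69.8 CPM, against 4.92 and 9.95 CPM). The SREB family (Gpr27, Gpr85 and Gpr173), highly conserved receptors of brain, summed to 140 and 142 CPM in precursors, 98.9 and 69.6 CPM in committed precursors and 13.8 and 33.4 CPM in oligodendrocytes.

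In vessel cells, Adgrf5 (chromosome 17, 43360451 to 43459557, plus strand), the receptor GPR116 of endothelium, was at 1438 CPM (1150 to 1776) and 1618 CPM (1289 to 2006) in endothelial cells, from 86 and 83 UMIs. Mural cells followed with 130 CPM (101 to 165) and 147 CPM (93.0 to 220), so that the endothelial level was 11.0-fold (7.94 to 15.4) and 11.0-fold (6.88 to 18.3) higher. Adgrl4, an endothelial receptor also called ELTD1, was at 853 CPM (635 to 1121) and 604 CPM (411 to 858) in endothelial cells and had no UMI in mural cells, where a count of 0 allows up to 5.75 and 19.1 CPM. Gpr4, proton-sensing as Gpr65 is, was at 100 CPM (36.8 to 218) and 136 CPM (54.9 to 281) in endothelial cells, from 6 and 7 UMIs, against 42.1 CPM (26.4 to 63.8) and 25.5 CPM (6.95 to 65.3) in mural cells, folds of 2.38 (0.790 to 6.06) and 5.35 (1.36 to 24.9).

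Other vascular receptors were shared by the wall and the lining. Adgra2, known as GPR124 and as a partner of Reck in Wnt7 signalling to brain vessels, was at 103 CPM (77.7 to 135) and 70.2 CPM (35.0 to 126) in mural cells and at 83.6 CPM (27.2 to 195) and 117 CPM (42.9 to 255) in endothelial cells. Adgre5, the leukocyte receptor CD97, was at 72.8 and 159 CPM in mural cells and at 50.2 and 78.0 CPM in endothelial cells. Of 12 receptors with 50 UMIs, 3 were 2-fold lower in mural than in endothelial cells (Adgrf5, Adgrl4, Adgrg1) and Gpr153 was the 1 above the limit, beside 5.28% and 14.1% of all genes. Gpr153 was at 115 CPM (87.7 to 148) and 44.7 CPM (18.0 to 92.0) in mural cells, with 1 UMI (16.7 CPM) and none in endothelial cells. In the FGF21 library 3 endothelial counts are 58.5 CPM, above the mural level, so a difference there was not detectable at this depth. Gpr146 had 20 UMIs (334 CPM, 204 to 517) in vehicle and 2 UMIs (39.0 CPM, 4.72 to 141) in FGF21 endothelial cells.

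Several receptors set no class apart. Gpr137, Gpr107 and Gpr108, proteins of lysosome and Golgi membranes, were at 74.7 to 117 CPM, 39.0 to 101 CPM and 31.1 to 66.9 CPM in every class other than choroid plexus and erythroid cells. Their levels in microglia were 99.7 and 109 CPM, 88.7 and 66.1 CPM, and 52.8 and 52.2 CPM.

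FGF21 and vehicle cells were compared within microglia, precursors and astrocytes, the classes with at least 50 cells in each library, for receptors with at least 50 UMIs. The background was higher in FGF21 (35.0% against 29.4%) and so was the depth per cell, and the part of either in a ratio was not tested. In microglia, 37 receptors had a median log2 ratio of 0.03, and all 11364 genes of that depth had 0.03. None was at least 2-fold lower and 6 were at least 2-fold higher in FGF21, beside 1.22% and 4.11% of all genes. The 6 were Gpr37l1 (2.02), Adgrb2 (2.11), Adgrb1 (2.20), Gpr19 (2.28), Gpr37 (2.36) and Gpr27 (2.56), all receptors of precursors, astrocytes or oligodendrocytes. Background gave 92.1% to 110% of their microglial levels.

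Of the receptors named here that belong to microglia themselves, all but Gpr84 were lower or alike in FGF21. Gpr34 had a ratio of 0.78 (0.75 to 0.81) and Gpr183 of 0.75 (0.69 to 0.82), from 213 CPM to 159 CPM. Gpr165 was lowest at 0.51 (0.37 to 0.69), from 23.2 CPM to 11.8 CPM. Adgrf5, which marks endothelial cells, followed at 0.60 (0.35 to 0.98), and 90.4% of its microglial level was background. Next were Adgrl2 at 0.62 (0.52 to 0.74), Gpr35 at 0.70 (0.54 to 0.91) and Gpr180 at 0.73 (0.51 to 1.02). Neither Adgrl2 nor Gpr180 was highest in microglia. Adgrl2 was highest in endothelial cells in both libraries, and Gpr180 stood higher in the precursor stage (26.2 and 17.4 CPM) than in microglia. Adgrg1 and Adgre1 were closer to 1, at 0.88 (0.83 to 0.93) and 0.89 (0.83 to 0.95). Gpr84 went the other way, from 26.7 CPM to 37.9 CPM, with a ratio of 1.42 (1.15 to 1.76). Since nearly all vehicle microglia lay in cluster 8 and nearly all FGF21 microglia in cluster 9, the same cluster could be compared only thinly. Gpr34 in cluster 9 was at 942 CPM in 13 vehicle cells and 774 CPM in 865 FGF21 cells (ratio 0.82, 0.64 to 1.07), while cluster 8 held 993 CPM over 1401 vehicle cells against 315 CPM over its 21 FGF21 cells (ratio 0.32, 0.17 to 0.53). With cells thinned to 2000 UMIs, 82.3% (80.1% to 84.3%) and 73.7% (70.7% to 76.6%) of microglia held a Gpr34 UMI, and 92.8% and 92.2% did before thinning. In precursors, which should lack it, the thinned shares were 16.9% and 9.62%.

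Gpr17 had the lowest FGF21 to vehicle ratio in precursors. Its level went from 1141 CPM (1099 to 1184) to 715 CPM (692 to 738), a ratio of 0.63 (0.60 to 0.66), among 41 receptors whose median log2 ratio was -0.07 beside -0.01 for all 11408 genes. Within precursor cluster 2, which both libraries fill, the ratio was 0.76 (0.69 to 0.84), from 1148 CPM in 367 cells to 875 CPM in 111 cells. By stage it was 0.67 (0.63 to 0.70) in precursors, 0.59 (0.47 to 0.74) in the Mcm-led cluster, 0.83 (0.78 to 0.88) in committed precursors and 1.70 (1.05 to 2.87) in oligodendrocytes. The last is from 21 and 96 UMIs and lies under the background, which was 208% and 142% of the level. After thinning, 83.6% (79.4% to 87.2%) and 67.7% (63.7% to 71.5%) of precursors held a Gpr17 UMI, beside 21.1% and 23.6% of microglia; unthinned shares were 97.9% and 96.7% of precursors. Gpr17 at 0.63 did not reach the 2-fold limit.

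None of the 41 was 2-fold lower in FGF21 precursors and 2 were 2-fold higher, beside 0.903% and 1.23% of all genes. Gpr37 went from 8.04 CPM to 23.4 CPM (ratio 2.91, 1.80 to 4.93), of which background gave 90.6%. Gpr135 went from 6.43 CPM to 13.8 CPM (ratio 2.14, 1.23 to 3.94), from 16 and 70 UMIs, with a background of 16.2%. Adgra2 (1.92, 1.05 to 3.74), Gpr176 (1.59, 0.94 to 2.82) and Gpr137c (1.22) came next. After Gpr17 the low end held Adgrl2 (0.63, 0.40 to 0.99), the microglial receptors Gpr34 (0.65, 0.55 to 0.78) and Adgre1 (0.70, 0.54 to 0.90), all 3 mostly background, and Gpr89 (0.71, 0.56 to 0.91), a Golgi ion channel protein at 48.3 and 34.4 CPM. The latrophilins were near 1, Adgrl1 at 0.97 (0.89 to 1.06) and Adgrl3 at 0.96 (0.85 to 1.08). In 34 of the 41 receptors the ratio lay within 1.5-fold.

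Among astrocytes 20 receptors had the depth, with a median log2 ratio of 0.16 beside 0.02 for all 6128 genes. Adgra1, also called GPR123, was 2-fold higher in FGF21, from 14.7 CPM to 44.0 CPM (ratio 2.98, 1.28 to 8.49) and from 6 and 53 UMIs. Gpr34 was 2-fold lower, from 116 CPM to 48.9 CPM (0.42, 0.28 to 0.64), but lay under its background, which was 201% of its level. Of all genes, 3.57% and 1.37% were 2-fold higher and lower. The next highest were Adgrb2 at 1.95 (1.10 to 3.73), Gpr108 at 1.40 (0.76 to 2.80), Gpr19 at 1.40 (0.85 to 2.41) and Gpr17 at 1.40 (0.99 to 2.02), and the next lowest Adgre1 at 0.61 (0.38 to 1.01), Gpr37 at 0.88 (0.60 to 1.31), Gpr107 at 0.88 (0.60 to 1.33) and Adgrb1 at 0.91 (0.55 to 1.55). Gpr37l1, the receptor that marks astrocytes, had a ratio of 0.97 (0.91 to 1.03), and Adgrg1 of 1.07 (0.91 to 1.26).

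**Figure D4:**
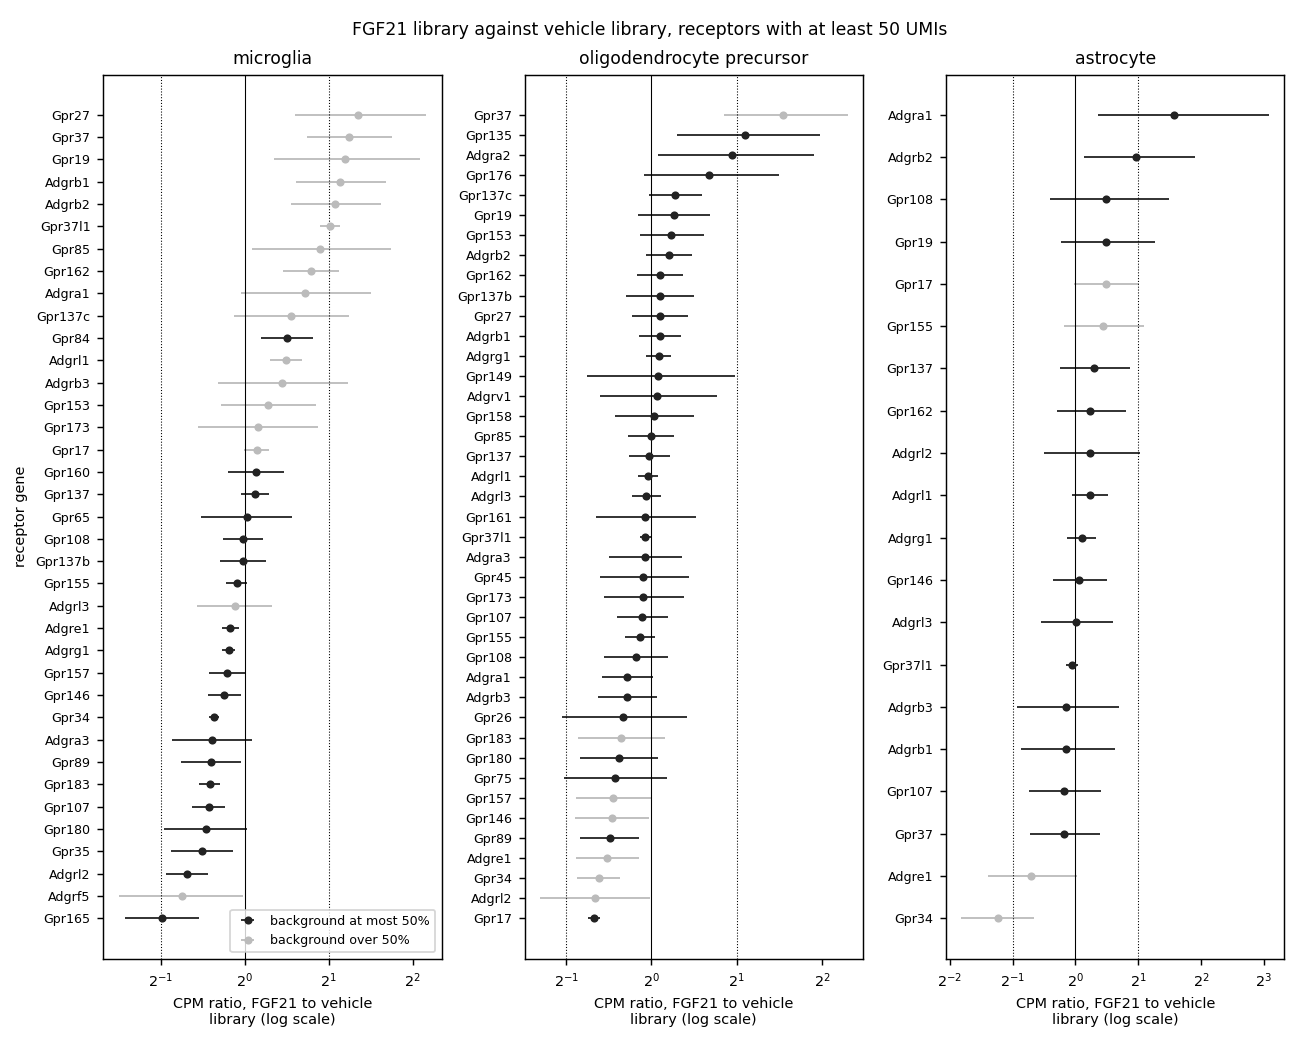
Ratio of the level in the FGF21 library to that in the vehicle library (log scale, dotted lines at 2-fold) for receptors with at least 50 UMIs in microglia, precursors and astrocytes; bars are exact 95% binomial intervals, and grey points are receptors with over 50% background. In microglia the 6 receptors above 2-fold are all grey, and among precursors Gpr17 is the lowest point.

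Ligands and signalling partners of these receptors were read from lists. Of 19 judged genes for latrophilin and brain angiogenesis inhibitor ligands, 10 marked a class, 7 of them precursors, beside 13.0% and 1.93% of all genes judged. The other lists below are to be read beside the same 13.0%. C1ql1, a ligand of Adgrb3, was at 1008 and 1081 CPM in precursors and 292 and 467 CPM in committed precursors. C1ql1 is one of the markers that named the precursor class, so its place there is not a result. Only the receptors were kept out of the clustering, so the partner genes of all lists could shape the classes. The neurexin gene Nrxn2 (580 and 568 CPM) was highest in precursors without the 2-fold step, and Rtn4rl1 in microglia (160 and 125 CPM). Among 12 genes listed for ligands of other adhesion receptors, 5 marked a class, 3 of them mural cells. Prnp, reported as a ligand of Adgrg6, marked astrocytes (1902 and 1982 CPM). Col4a1 was at 1415 and 1059 CPM in mural cells, Chst2 at 592 and 452 CPM and Ptdss1 at 123 and 130 CPM in precursors. Chst2 and Ptdss1 encode enzymes and are not ligands themselves.

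Of 7 judged genes for ligands of GPR receptors and their enzymes, 3 marked a class. Psap, which encodes the prosaposin reported to act on Gpr37 and Gpr37l1, was at 3576 and 3548 CPM in microglia, a class with those receptors at background level. Cxcl14 marked astrocytes (538 and 635 CPM), while Abhd16a, an enzyme of lysophosphatidylserine synthesis, and Nampt marked none. Of 8 related receptors outside the name rule 2 marked a class, Lgr4 in astrocytes (138 and 138 CPM) and Gprc5c in mural cells (201 and 255 CPM). Celsr2 was highest in astrocytes (165 and 180 CPM) and Gprc5b in oligodendrocytes (463 and 410 CPM). Of 13 G protein alpha subunits 5 marked a class; Gnas was at 4290 and 3352 CPM in choroid plexus cells, Gnai2 at 920 and 994 CPM in endothelial cells, and Gnao1 (1391 and 1561 CPM) and Gna13 (396 and 369 CPM) were highest in astrocytes. Among 20 receptor kinases, arrestins and RGS genes 5 marked a class, with Rgs5 at 11638 and 8376 CPM in mural cells. Rgs5 is one of the markers that named the mural class, so its place there is not a result. Rgs10 (820 and 927 CPM), Rgs2 (865 and 736 CPM) and Arrb2 (403 and 318 CPM) were highest in microglia. In microglia the median log2 ratio of FGF21 to vehicle was 0.55 over 13 latrophilin and brain angiogenesis inhibitor ligands, a list led by precursor genes, and 0.02 over 17 kinases, arrestins and RGS genes, beside 0.03 over all genes.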

How the data were processed

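Single-cell RNA counts of tdTomato-sorted basolateral amygdala cells were taken from 1 deposited table per treatment. Per the file headers, the authors made the count tables with the BD WTA Rhapsody Analysis Pipeline 1.9.1, as molecule counts per cell after its UMI correction, with a tdTomato sequence in the reference; GRCm38 comes from the submitters' processing notes. Sources used here do not give the aligner, the annotation or the use of strand. The deposited tables held 2925 (vehicle) and 2455 (FGF21) barcodes with 11130580 and 14585503 UMIs.

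Barcodes with at least 500 UMIs, 300 genes and at most 25% mitochondrial UMIs were kept, and 17 and 16 predicted doublets (Scrublet in scanpy 1.11.5) were removed. The 2 libraries were pooled for clustering, with no batch correction (2000 variable genes without the receptors, 30 principal components, 15 neighbours, Leiden resolution 1.0, and 0.5 within the lineage), and clusters were named from marker lists. UMIs were summed per class and library, and scaled to CPM. Classes with at least 10 cells in each library were described. With 1 library per treatment no test was possible, so 2-fold limits and exact intervals (scipy 1.17.1) stand in their place. They were run on simulated counts with Poisson error alone, the error that the intervals assume. That run cannot show how they hold up to differences between animals, libraries or cells. Positions are from GENCODE vM21.

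The receptors, marker lists and partner lists were chosen with earlier results of these data known. Named were every receptor that marked a class or stage, the 5 highest and 5 lowest ratios in each compared class, the 3 genes on each side of the UMI limit and the 4 deepest genes of each partner list; 1 member and 1 partner gene are not reported here. Other members were described after their values were seen, and the comparisons of 2 classes or stages, with their depth limit, were added then. Alternatives were other filters, clusterings, scalings, folds and UMI limits, removal of the background, and cells thinned to 2000 UMIs.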

Additional observations from a re-analysis of the deposited data

How the results depend on the processing

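No paired analysis was possible because each treatment has 1 library. With limits of 10 and 50 UMIs, 73 and 56 receptors would be members. The 13 receptors that marked a class became 20 at 1.5-fold and 7 at 3-fold, and 8 of them (Gpr158, Gpr17, Gpr26, Gpr34, Gpr37, Gpr37l1, Gpr62, Gpr65) marked the same class under every alternative other than 3-fold. With classes of at least 100000 UMIs only, chosen after seeing the data, 15 marked a class and 10 were shared; there and at 10% mitochondrial UMIs the endothelial class drops out, and Adgrf5 and Gpr4 marked mural cells. The 5 stage receptors were called under all 8 alternatives. But the count became 12 at 10% mitochondrial UMIs, 13 with the receptors kept in the clustering and 14 at another Leiden resolution. In these groupings precursor receptors were added, and no Mcm-led stage was kept apart. Of microglia against border macrophages, the 4 higher receptors became 7 at another resolution, 9 with background subtracted, 7 as a mean over cells and 8 at 1.5-fold, and the 1 lower became 2, 2 and 2 (10% mitochondrial UMIs, resolution, background subtracted) and 3 at 1.5-fold. The 8 receptors lower in committed precursors became 16 and 5 at 1.5-fold and 3-fold, and the 5 higher in astrocytes 3 at 3-fold.

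Between libraries, the 6 receptors higher in FGF21 microglia became 3 as a mean over cells, 3 in thinned cells and 0 with background subtracted, where all 6 drop out by construction. The 0 lower became 1 as a mean over cells, 3 at 1.5-fold, 1 with 20 UMIs and 1 in thinned cells, and the median log2 ratio became -0.30 with background subtracted, -0.10 with 100 UMIs and -0.18 in thinned cells. In precursors the 2 higher became 1 as a mean over cells, 4 at 1.5-fold, 1 with 100 UMIs and 0 in thinned cells, and the 0 lower became 3 at 1.5-fold, 2 with 20 UMIs and 1 in thinned cells. In astrocytes the 1 higher became 0 at 10% mitochondrial UMIs, with 100 UMIs and in thinned cells, and 2 as a mean over cells, at 1.5-fold and with 20 UMIs. The 1 lower became 0 with background subtracted and in thinned cells and 2 at 1.5-fold. Subtraction keeps only genes of at most 50% background, and thinning leaves fewer UMIs; the cause of the other changes was not tested. Of 178 single ratios recomputed from the same libraries, 174 stayed within the counting interval. A reversal was looked for only in ratios at least 2-fold apart, and none was found. Ratios that dropped out under an alternative were not counted. Gpr17 in precursors became -0.87 with background subtracted and -0.75 in thinned cells (log2). Depth limits the small classes most.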

Other observations

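Neuron-like cells were few, 9 from vehicle and 21 from FGF21 mice. In them the latrophilin Adgrl1 was at 291 CPM (145 to 521) and 494 CPM (376 to 637), from 11 and 59 UMIs, with exact Poisson intervals that cover counting error only. Adgrl3 was at 291 and 117 CPM, from 11 and 14 UMIs. The vehicle cells were too few to compare with other classes.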
